A study of Mus musculus with 24 samples.

Results

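Collagen chain genes were taken from a lung RNA-Seq table by their symbols, Col followed by a number, the letter a and a number, which gave 40 of the 23891 genes listed. They encode 9 fibrillar chains, 9 basement membrane chains, 7 chains of fibril-associated collagens with interrupted helices (FACIT), 6 beaded filament chains (collagen VI), 4 transmembrane chains, 3 short chains and 2 others. The data came from the left lung lobe of C57BL/6 mice, 24 samples in 4 groups, profiled to compare adult with aged lungs and to follow a house-dust mite (HDM) response with and without dexamethasone (Dex), a synthetic glucocorticoid. Naïve adult samples (n = 5) came from mice 20 wk old by the labels, and all other samples from mice 80 wk old. Both naïve groups received saline, and the naïve aged samples (n = 5) are called saline below. HDM samples (n = 7) came from mice sensitized intranasally with 3 doses of 50 µg HDM and challenged with 9 further doses. For HDM + Dex samples (n = 7), mice received the same HDM and, at intervals of 72 h through the challenge phase, Dex at 4 mg/kg. Lungs were collected 24 h after the final challenge. No HDM-challenged adult mice were analysed here. The labels list 7 samples in each HDM group where the methods give an n of 5 for RNA-Seq, and name no mice, so that the p-values measure the spread between these samples.

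Collagens are made of 3 chains wound into a triple helix, as homotrimers of 1 chain or heterotrimers of several. Types I, III and V co-assemble into the fibrils that give airway walls, vessels and septa their tensile strength, collagen VI forms beaded microfibrils near cell surfaces, and collagen IV forms the sheet of the basement membrane. In the lung, fibroblasts are known as the main source of fibrillar collagen, whereas collagen IV is made by endothelial and epithelial cells too. Deposition of collagen under the airway epithelium is a known feature of long-standing asthma.

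Values are CPM, the reads of a gene scaled to a common library total. The estimated depth was 10.03 to 33.05 M reads per sample, so that 3 reads, taken as the detection floor, corresponded to 0.0908 to 0.299 CPM. Of the 40 genes, 34 averaged 1 CPM or more across all samples and were tested. The other 6, Col6a4, Col9a3, Col19a1, Col22a1, Col25a1 and Col26a1, had means of 0.157 to 0.808 CPM. Col2a1, Col9a1, Col9a2, Col11a1 and Col21a1 were not analysed here. The RNA of the signal recognition particle, 7SL, took over 25% of the CPM in 1 naïve adult (replicate 1, 41.98%), 5 HDM and 4 HDM + Dex samples and in no saline sample. Sex, read from Xist and Ddx3y, was female in all 5 adults, 2 of 5 saline, 2 of 7 HDM and 4 of 7 HDM + Dex samples. The 5 HDM samples above 25% were the 5 males, so that sex and 7SL share cannot be told apart within HDM. HDM replicate 2 stood apart from the other HDM samples, with the lowest fibrillar collagen and, at 1090.4 CPM, the highest sum of 8 fibroblast markers, against 428 to 754 CPM in the others.

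As lung tissue, all samples contained RNA of alveolar, endothelial, smooth muscle and fibroblast markers. In the saline and HDM groups, no member of these lists was at or under the floor in every sample of the group. Cartilage, a source of collagens II, IX, X and XI in the large airways, gave little signal. The 6 markers of 9 that were in the table summed to 9.15 to 19.5 CPM (median 11.5) in saline and 1.29 to 15.7 CPM (median 5.49) in HDM samples, and the cartilage proteoglycan gene Acan was listed at the added constant, without a read, in most samples of each group.

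Levels per length, in CPM per kb of annotated exons averaged over the 24 samples, were highest for Col4a1 (80.04) and Col4a2 (70.9), the chains of the widespread α1α1α2 form of collagen IV. They were followed by Col3a1 (43.6), Col6a1 (39.5), Col1a1 (34.8) and Col1a2 (19.7). Col4a3 (16.5) and Col4a4 (16.8), chains of the α3α4α5 form of alveolar and glomerular basement membranes, stood at a similar level per length to each other. Col6a5 (2.55) and Col24a1 (0.291) were far lower. These levels differed between groups. In saline samples Col4a1 stood at 75.4 CPM per kb, Col6a1 at 23.9, Col3a1 at 18.8 and Col1a1 at 16.1. After HDM these levels were 93.8, 49.1, 66.9 and 49.8 CPM per kb, and after HDM + Dex 59.98, 43.7, 35.6 and 26.9 CPM per kb. Per kb, mean Col6a1 was thus above Col3a1 and Col1a1 in saline and HDM + Dex samples and below both in HDM samples. Against Col3a1 this order rests on the division by length, which counts the exons of all annotated transcripts of a gene. In CPM, mean Col6a1 was below Col3a1 in each of these groups, at 104.8 against 184.4 in saline and 191.4 against 349.3 in HDM + Dex samples. Against Col1a1, mean Col6a1 in CPM was close in saline (104.8 and 105.6), below in HDM (215 and 327) and above in HDM + Dex samples (191.4 and 176.6).

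**Figure D1:**
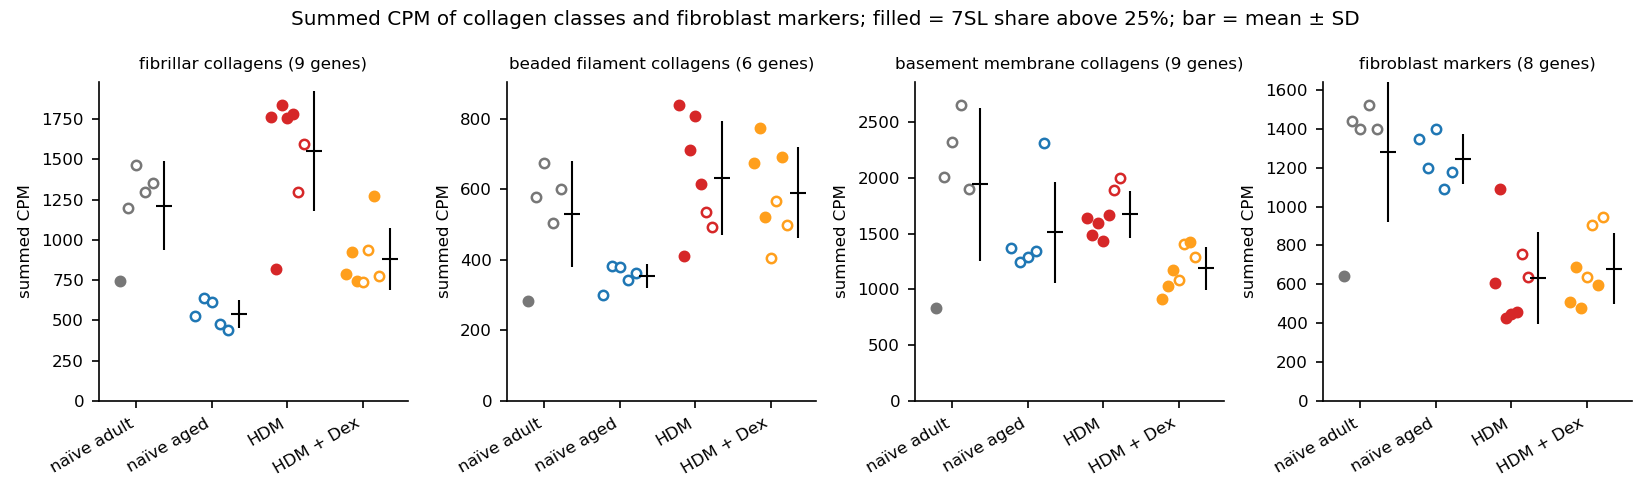
Summed CPM of 3 collagen classes and of 8 fibroblast marker genes, with 1 point per sample in each group, filled where the 7SL share was above 25%, and the mean ± SD beside the points. Fibrillar sums were 443 to 638 CPM (median 525) in saline and 819 to 1837 CPM (median 1760.1) in HDM samples, while fibroblast marker sums were higher in saline than in most HDM samples.

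Summed over its 9 genes, fibrillar collagen was 745 to 1464 CPM (median 1301) in naïve adult, 443 to 638 CPM (median 525) in saline, 819 to 1837 CPM (median 1760.1) in HDM and 736 to 1273 CPM (median 786) in HDM + Dex samples. The saline range lay below those of both HDM groups, and the HDM and HDM + Dex ranges overlapped. The 9 basement membrane chains summed to 1245 to 2311 CPM (median 1341) in saline, 1431 to 1997 CPM (median 1637) in HDM and 915 to 1423 CPM (median 1179) in HDM + Dex samples, with overlap between saline and both other groups and none between HDM and HDM + Dex. The 6 collagen VI chains summed to 300.02 to 383 CPM (median 364) in saline, 412 to 839 CPM (median 617) in HDM and 407 to 776 CPM (median 567) in HDM + Dex samples, and here the saline range lay below both others. In bulk lung RNA, fewer cells of a type and less RNA per cell cannot be told apart, in these sums and in all results that follow.

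Fibrillar collagen and collagen VI mRNA was higher in HDM than in saline samples. Since 5 of 7 HDM samples and no saline sample had a 7SL share above 25%, HDM and 7SL share cannot be fully told apart. Of the collagen VI genes, none passed with that share as a covariate, and only Col6a2 with only samples below 25%. At an adjusted p under 0.05 from limma, 11 of the 34 collagen genes tested were higher after HDM than in saline samples and 6 were lower. Of all 17744 genes tested, 25.3% passed, 4.04% higher and 21.2% lower. The 11 higher genes were 7 of 9 fibrillar and 4 of 5 collagen VI genes tested, and the 6 lower genes belonged to the other classes. The median log2 fold change was 0.19 over the 34 collagen genes and −0.23 over all genes. In 10 collagen genes the HDM and saline samples did not overlap, 7 higher and 3 lower, against 8.71% of all genes, 1.03% higher and 7.69% lower. With library factors set by the median of ratios in place of the library total, the median of all genes was −0.01. Then 18 collagen genes passed, 15 higher and 3 lower, against 22.5% of all genes, 10.9% higher and 11.6% lower.

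Col1a1 and Col1a2 encode the chains of type I collagen, the main fibril component. Col1a1 (chromosome 11, 94936224 to 94953042 in GRCm38) was at 92.3, 119.8, 118, 89.8 and 108 CPM in saline samples and at 161 to 381 (median 354) CPM after HDM. Every HDM sample was above every saline sample, and replicate 2 was the lowest HDM sample. The log2 fold change of CPM + 1, given with its standard error (SE), was 1.58 (SE 0.18, limma adjusted p = 4.49e-05). Col1a2 (chromosome 6, 4504814 to 4541544) was at 141, 164, 149.97, 114 and 123 CPM in saline samples and at 195 to 426 (median 374) CPM after HDM, again without overlap. Its log2 fold change was 1.25 (SE 0.17, limma adjusted p = 0.000185).

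Col3a1 (chromosome 1, 45311538 to 45349706), the chain of the type III homotrimer of extensible tissue, was at 187, 222, 227, 162 and 123 CPM in saline samples and at 310.2 to 779 (median 727) CPM after HDM. The groups did not overlap, and the log2 fold change was 1.80 (SE 0.22, limma adjusted p = 8.88e-05). Its neighbour Col5a2 (chromosome 1, 45374321 to 45503282), a chain of type V collagen, which starts fibrils and limits their width, was at 48.9, 45.2, 44.00, 40.8 and 34.2 CPM in saline samples and at 77.5 to 167 (median 159) CPM after HDM. These groups did not overlap either, with a log2 fold change of 1.61 (SE 0.20, limma adjusted p = 8.88e-05).

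The other type V chains also passed, with smaller fold changes. Col5a1 was at 37.4, 58.9, 51.8, 50.4 and 40.3 CPM in saline samples and at 49.7 to 82.03 (median 64.99) CPM after HDM, with a log2 fold change of 0.46 (SE 0.14, limma adjusted p = 0.0198). Col5a3 was at 3.35, 5.67, 4.79, 2.77 and 2.33 CPM in saline samples and at 5.05 to 8.61 (median 6.17) CPM after HDM, and its log2 fold change was 0.63 (SE 0.19, limma adjusted p = 0.021). For both genes the groups overlapped. The remaining fibrillar genes tested, Col11a2 and Col27a1, had log2 fold changes of 0.29 and −0.16 and did not pass.

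Col24a1 (chromosome 3, 145292472 to 145552011), a minor fibrillar chain, was near the floor in saline samples, at 0.177, 0.140, 0.387, 0.603 and 0.198 CPM. After HDM it was at 0.760 to 7.40 (median 6.76) CPM, above every saline sample, with a log2 fold change of 1.90 (SE 0.36, limma adjusted p = 0.00126). HDM replicates 1, 3, 4 and 5 lay between 6.76 and 7.40 CPM, and replicates 2, 6 and 7 at 1.34, 0.760 and 2.33 CPM.

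**Figure D2:**
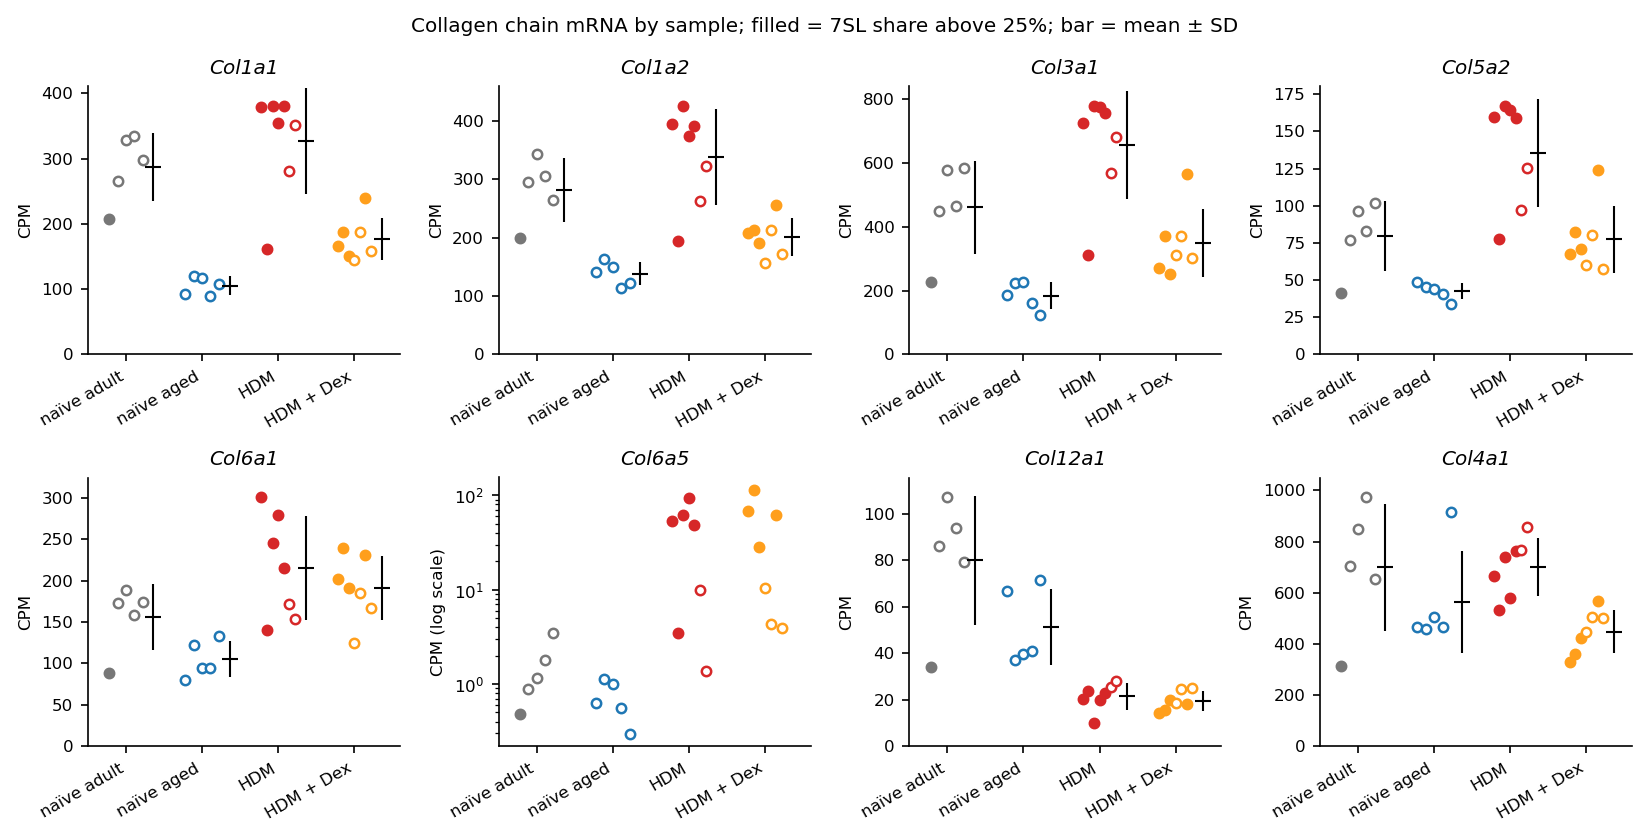
CPM of 8 collagen genes in each sample, by group, with 1 point per sample, filled where the 7SL share was above 25%, and the mean ± SD beside the points. The Col6a5 panel has a log axis and no mean. Col1a1 was at 89.8 to 119.8 CPM in saline and 161 to 381 CPM in HDM samples, and Col12a1 moved the other way.

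Among collagen VI genes, Col6a1 and Col6a2 encode the chains that pair with a large partner chain in the common trimer. Col6a1 was at 80.2, 122, 94.7, 94.7 and 133 CPM in saline samples and at 140.2 to 301 (median 215) CPM after HDM, without overlap and with a log2 fold change of 1.00 (SE 0.19, limma adjusted p = 0.00139). Col6a2 was at 61.04, 83.3, 89.4, 72.04 and 96.2 CPM in saline samples and at 88.2 to 208 (median 157) CPM after HDM, where the lowest HDM sample, replicate 2, was within the saline range. Its log2 fold change was 0.92 (SE 0.19, limma adjusted p = 0.00227). Col6a3, the large partner chain, had a smaller log2 fold change of 0.39 (SE 0.13, limma adjusted p = 0.0386), from 157, 176, 194, 173 and 134 CPM to 179 to 274 (median 218) CPM.

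Col6a5 (chromosome 9, 105856078 to 105960643), an alternative to the Col6a3 chain that lies beside Col6a4 and Col6a6, had the largest log2 fold change of the 34 genes, 3.64 (SE 0.86, limma adjusted p = 0.00466). It was at 0.636, 1.12, 1.01, 0.553 and 0.297 CPM in saline samples and at 1.39 to 94.2 (median 48.6) CPM after HDM. The HDM samples were spread widely. Replicates 1, 3, 4 and 5 were at 53.7, 61.97, 94.2 and 48.6 CPM, and replicates 2, 6 and 7 at 3.47, 9.88 and 1.39 CPM. The mean was 52.4 CPM in the 5 HDM samples with a 7SL share above 25% and 5.63 CPM in the 2 below it. The part of the 7SL share and of sex in this spread was not tested. Col6a6 did not pass, with a log2 fold change of 0.02.

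Of the genes named so far, some passed in each of the settings for the 7SL share and others did not. With only the samples below 25% (5 saline, 2 HDM), 5 collagen genes passed, Col1a1, Col1a2, Col3a1, Col5a2 and Col6a2, all higher. With the 7SL share as a covariate, Col1a1, Col1a2, Col3a1 and Col5a2 remained higher and Col12a1 lower. Under either setting Col6a5, Col24a1, Col6a1, Col6a3, Col5a1 and Col5a3 had adjusted p-values above 0.05. The log2 fold changes of Col5a1 (0.50 with the covariate, 0.60 below 25%) and Col5a3 (0.74 and 0.87) were then no smaller than with all samples. Those of Col6a5 (1.30 and 1.59), Col24a1 (1.06 and 0.91) and Col6a1 (0.57 and 0.65) were smaller. Without HDM replicate 2, 18 collagen genes passed, the same 17 and Col15a1. With sex as a covariate the same 17 genes passed.

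**Figure D3:**
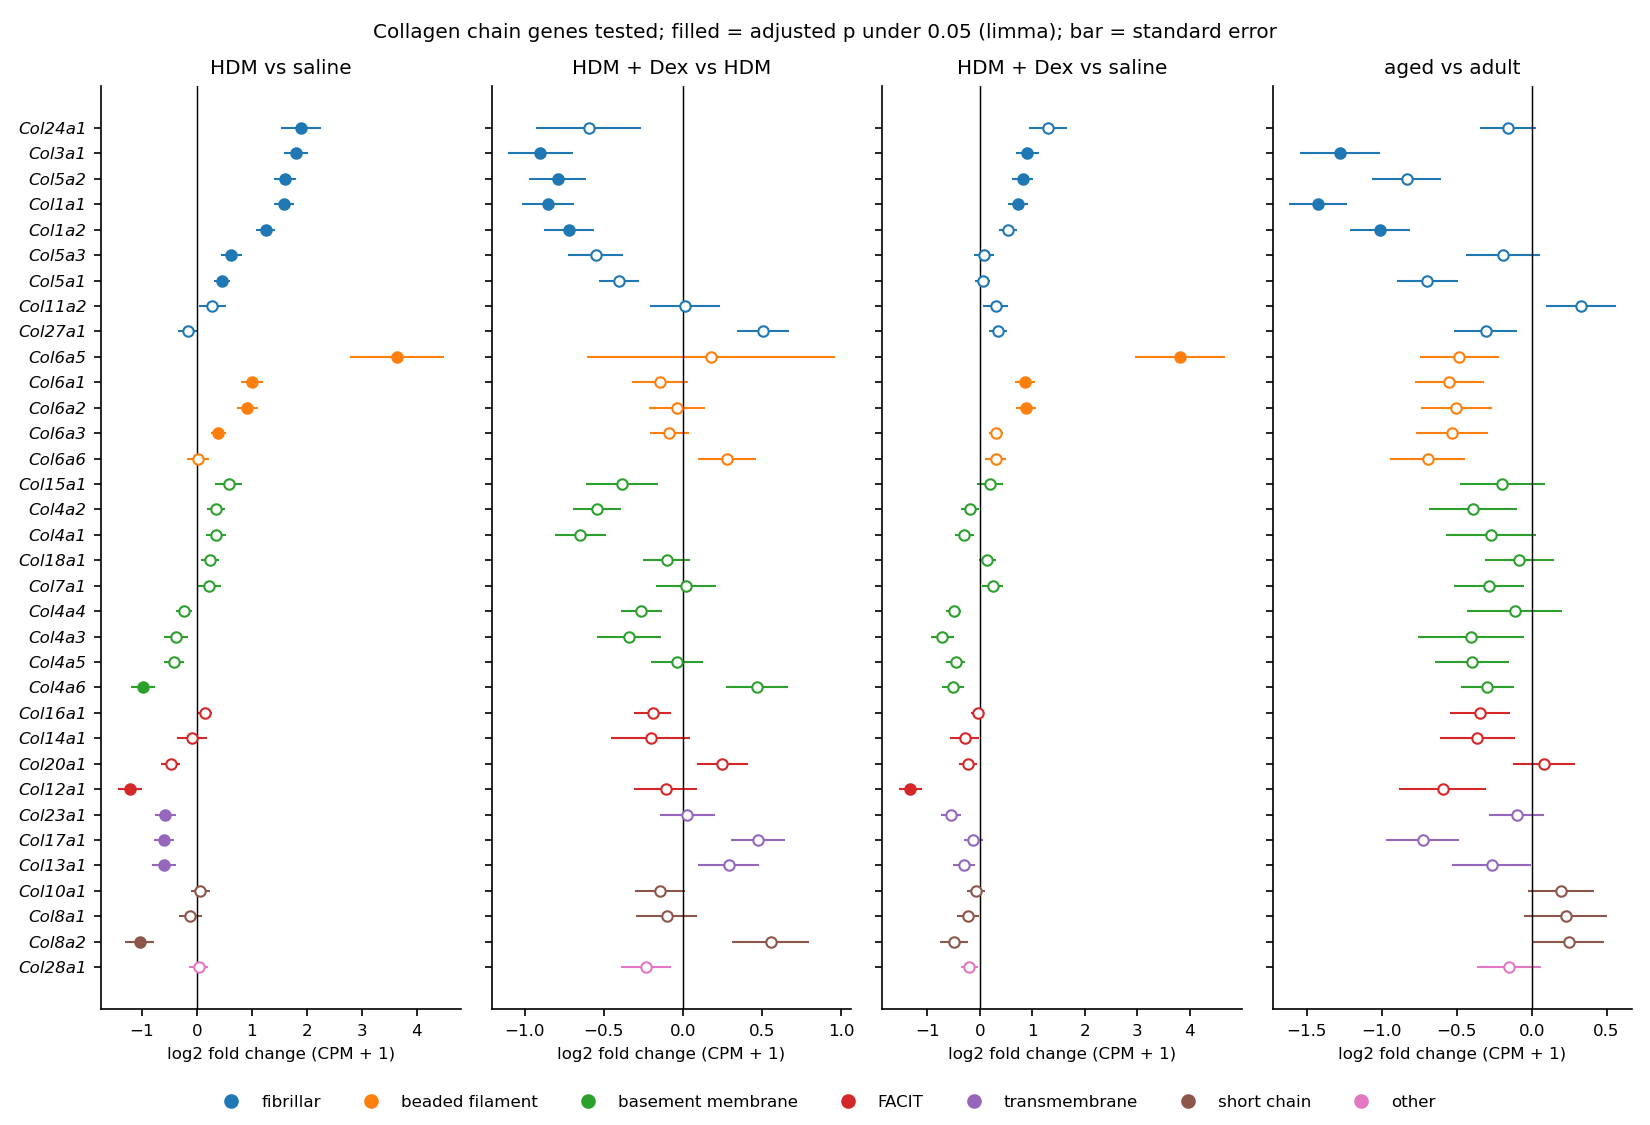
Log2 fold change of CPM + 1 with its standard error (limma) for the 34 collagen genes tested, colored by class, in 4 comparisons, filled where the adjusted p was under 0.05. After HDM the filled points on the right are fibrillar and collagen VI genes and those on the left belong to the other classes, while with Dex 4 fibrillar genes are filled on the left.

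To show what genes with large fold changes in 3 of the classes carry next to their start, the 250 bases upstream of the annotated start are given for Col3a1, Col24a1, Col6a5 and Col4a6, in the direction of transcription (RefSeq, GRCm38.p6). The windows are chr1:45311288-45311537 (plus strand), chr3:145292222-145292471 (plus strand), chr9:105960644-105960893 (minus strand) and chrX:141474077-141474326 (minus strand). Capitals mark the letters of a TATA box (TATAAA) or a GC box (GGGCGG) on either strand, matched anywhere in the window.
Col3a1: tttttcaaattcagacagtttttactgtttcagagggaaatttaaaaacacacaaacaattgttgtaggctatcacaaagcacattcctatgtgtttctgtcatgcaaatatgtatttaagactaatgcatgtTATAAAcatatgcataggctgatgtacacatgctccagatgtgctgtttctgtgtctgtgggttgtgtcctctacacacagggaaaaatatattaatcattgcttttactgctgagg
Col24a1: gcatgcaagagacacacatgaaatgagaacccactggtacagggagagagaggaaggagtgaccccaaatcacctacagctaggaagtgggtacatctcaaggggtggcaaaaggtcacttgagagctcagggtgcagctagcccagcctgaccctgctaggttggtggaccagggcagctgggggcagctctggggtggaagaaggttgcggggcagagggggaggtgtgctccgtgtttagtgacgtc
Col6a5: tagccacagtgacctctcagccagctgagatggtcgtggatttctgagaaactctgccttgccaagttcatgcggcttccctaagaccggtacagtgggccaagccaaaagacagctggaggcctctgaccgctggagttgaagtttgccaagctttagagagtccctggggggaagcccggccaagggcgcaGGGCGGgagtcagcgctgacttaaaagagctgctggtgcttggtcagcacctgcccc
Col4a6: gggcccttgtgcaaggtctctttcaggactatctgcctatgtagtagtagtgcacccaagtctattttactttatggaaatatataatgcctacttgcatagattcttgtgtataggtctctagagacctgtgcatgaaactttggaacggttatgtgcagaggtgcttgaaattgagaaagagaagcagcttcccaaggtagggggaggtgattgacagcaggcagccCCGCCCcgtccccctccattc
Col3a1 held TATAAA, Col6a5 and Col4a6 held GGGCGG, and Col24a1 held neither. These are matches of letters, and whether they act as TATA or GC boxes was not tested. Of the 32 collagen genes with a window of this length, 11 held CCAAT, 19 held GGGCGG and 5 held TATAAA, where 33.8%, 33.0% and 12.3% of all 32536 windows did. The palindromic glucocorticoid response element, searched as an exact consensus on both strands, was in none of the 32 windows and in 0.00922% of all windows.

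Of the 9 basement membrane genes, 1 passed in the deposited CPM, Col4a6, which was lower after HDM, and the calls of 4 others turned on 1 saline sample and on the scaling. Col4a6 (chromosome X, 141165403 to 141474076), a chain of the α5α5α6 form found beneath airway epithelium and smooth muscle, was at 17.5, 17.98, 20.3, 14.4 and 17.1 CPM in saline samples and at 3.88 to 13.7 (median 8.29) CPM after HDM. Each HDM sample was below each saline sample, with a log2 fold change of −0.98 (SE 0.22, limma adjusted p = 0.0031). It was −0.56 with only samples below a 7SL share of 25% and did not pass there. Col4a1, the basement membrane chain with the highest level, was at 465, 458, 506, 467 and 916 CPM in saline samples and at 532 to 857 (median 738) CPM after HDM, and its log2 fold change was 0.35 (SE 0.18, limma adjusted p = 0.142). Saline replicate 5 lay far above the other 4. Without it 4 basement membrane genes passed as higher, with log2 fold changes of 0.54 for Col4a1, 0.54 for Col4a2, 0.87 for Col15a1 and 0.42 for Col18a1. After median-of-ratios rescaling the same 4 passed as higher, while their log2 fold changes in the deposited CPM of all samples were 0.35, 0.36, 0.58 and 0.24. Col4a3, Col4a4 and Col4a5 had values of −0.38, −0.24 and −0.42 and passed in neither scaling, and the first pair changed sign in some settings. An antisense transcript overlaps Col4a3 and Slc19a1 overlaps Col18a1 on the opposite strand, and whether the counting used strand is not given in the sources used here, so that reads of these pairs may be mixed.

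Col12a1 (chromosome 9, 79598991 to 79718831), a FACIT chain that bridges fibrils in tissue under load, fell most. It was at 66.6, 37.2, 39.6, 41.1 and 71.4 CPM in saline samples and at 9.85 to 27.9 (median 23.01) CPM after HDM, without overlap and with a log2 fold change of −1.22 (SE 0.22, limma adjusted p = 0.000883). The other FACIT genes tested, Col14a1, Col16a1 and Col20a1, did not pass. Col8a2, a short chain of vessel walls and Descemet's membrane, was at 15.7, 18.9, 15.8, 8.09 and 18.1 CPM in saline samples and at 3.26 to 12.9 (median 6.42) CPM after HDM, and its log2 fold change was −1.04 (SE 0.26, limma adjusted p = 0.00756). This fold change was −0.56 (adjusted p = 0.229) with the 7SL share as a covariate and −0.27 (adjusted p = 0.617) with only samples below 25%. Col8a2 averaged 12.1 CPM in the 2 female HDM samples and 11.95 CPM in the 2 female saline samples. Its partner Col8a1 was at 20.7, 16.9, 12.8, 9.25 and 8.36 CPM and 7.43 to 16.5 (median 12.05) CPM, and its log2 fold change of −0.11 (SE 0.21, limma adjusted p = 0.708) changed sign after rescaling.

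All 3 transmembrane genes tested were lower in the deposited CPM. Col23a1 was at 55.8, 59.6, 53.2, 51.7 and 63.2 CPM in saline samples and at 25.3 to 50.4 (median 42.9) CPM after HDM, without overlap and with a log2 fold change of −0.57 (SE 0.19, limma adjusted p = 0.031). Col13a1, a chain at cell adhesions, was at 27.6, 40.8, 30.5, 28.5 and 25.4 CPM and 12.95 to 34.96 (median 19.6) CPM, with a log2 fold change of −0.59 (SE 0.21, limma adjusted p = 0.0431). Col17a1, the hemidesmosome collagen of basal epithelial cells, was at 4.70, 3.64, 4.88, 4.83 and 2.28 CPM and 1.46 to 3.35 (median 2.36) CPM, with a log2 fold change of −0.59 (SE 0.19, limma adjusted p = 0.0251). None of the 3 passed after median-of-ratios rescaling, where their log2 fold changes remained negative, and none passed in either setting for the 7SL share. With only samples below 25% the log2 fold change was −0.063 for Col13a1, −0.28 for Col23a1 and −0.64 for Col17a1. Col28a1, of the remaining class, was at 1.34, 1.33, 0.822, 1.26 and 0.594 CPM and 0.696 to 1.52 (median 1.21) CPM, and its log2 fold change was 0.04 (SE 0.17, limma adjusted p = 0.894).

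Fibroblast markers were lower in HDM than in saline samples. The 8 markers summed to 645 to 1522 CPM (median 1399.7) in naïve adult, 1089.8 to 1399.8 CPM (median 1196) in saline, 428 to 1090.4 CPM (median 609) in HDM and 479 to 945 CPM (median 636) in HDM + Dex samples, with none at the floor in every sample of a group. Inmt weighs heavily in these sums, at a mean of 545 of 1243 CPM in saline and 196 of 632 CPM in HDM samples. Gene by gene, the log2 fold changes of the 8 for HDM vs. saline ran from −1.75 to −0.19. Pdgfra, Tcf21, Dcn, Pi16 and Inmt, 5 of the 8, were lower after HDM and 0 were higher, and 3 were lower after rescaling. Of all genes, 21.2% were lower and 4.04% higher in this comparison, and 11.6% and 10.9% after rescaling. All 4 endothelial markers were also lower, 1 of them after rescaling, and their sum was 1069.9 to 1540.04 CPM (median 1411) in saline and 669 to 1148 CPM (median 838) in HDM samples. Of 4 macrophage markers 2, Cd68 and Csf1r, were higher, 3 after rescaling, and the sum was 149.96 to 183 CPM (median 169) and 133 to 499.9 CPM (median 313). The macrophage markers did not all move 1 way, since the lowest log2 fold change of the 4 was −1.03, which did not pass. Heart muscle markers, which mouse pulmonary veins also express, summed to 534 to 984 CPM (median 863) and 20.3 to 403 CPM (median 58.1), and all 5 were lower in both scalings. The part of these shifts in the collagen values was not tested.

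Type I and type III collagen and Col5a2 mRNA was lower in HDM + Dex than in HDM samples, by calls that were lost in several settings given below. In HDM + Dex vs. HDM, 4 of the 34 collagen genes passed, all 4 lower and all 4 fibrillar, where 0.964% of all genes passed with 0.75% higher and 0.214% lower. Col1a1 was at 145 to 240.2 (median 166) CPM after HDM + Dex, with a log2 fold change of −0.85 (SE 0.17, limma adjusted p = 0.027) against HDM. Col3a1 was at 251 to 566 (median 312) CPM, with a log2 fold change of −0.90 (SE 0.20, limma adjusted p = 0.0356). In both genes the groups overlapped through HDM replicate 2 alone. Col5a2 was at 57.5 to 124 (median 70.6) CPM, with a log2 fold change of −0.79 (SE 0.18, limma adjusted p = 0.0356). Col1a2 was at 156 to 256 (median 207) CPM, with a log2 fold change of −0.72 (SE 0.16, limma adjusted p = 0.0311).

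Within the samples with a 7SL share above 25%, Col1a1 averaged 331 CPM in 5 HDM and 186 CPM in 4 HDM + Dex samples. Below 25% it averaged 316 CPM in 2 HDM and 163 CPM in 3 HDM + Dex samples. The mean was lower with Dex in both strata, but with only the samples below 25% none of the 34 collagen genes passed, and none passed when the 2 groups were fitted without the saline samples. With the 7SL share as a covariate 6 passed, the same 4 and Col4a1 and Col4a2. After median-of-ratios rescaling 4 passed, all lower, with Col4a1 in place of Col5a2, against 2.85% of all genes, 1.98% higher and 0.862% lower. The count ran from 0 to 6 when single samples were left out, and was 6 without HDM replicate 2.

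Fibroblast markers did not pass with Dex, 0 of 8, where 0.964% of all genes passed, 0.75% higher and 0.214% lower. Of the 5 smooth muscle markers, Cnn1 was higher in HDM + Dex than in HDM samples in both scalings, and the sum was 343 to 807 CPM (median 563) in HDM and 599 to 945 CPM (median 736) in HDM + Dex samples. Heart muscle markers summed to 20.3 to 403 CPM (median 58.1) in HDM and 42.9 to 1166 CPM (median 279) in HDM + Dex samples, with 0 of 5 passing. The part of these shifts in the collagen values was not tested.

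No gene of the other classes passed with Dex in the deposited CPM, although the basement membrane sums did not overlap. Col4a1 was at 330.3 to 568 (median 448) CPM, with a log2 fold change of −0.65 (SE 0.16, limma adjusted p = 0.0552) against HDM, and Col4a2 had −0.54 (adjusted p = 0.0793). Col5a3 was at 2.41 to 4.96 (median 4.39) CPM, below every HDM sample, the only collagen gene without overlap, where 0.225% of all genes did not overlap, 0.147% higher and 0.0789% lower. Its log2 fold change of −0.55 (SE 0.17, limma adjusted p = 0.128) did not pass. Col6a1 was at 125 to 240.04 (median 191) CPM, with a log2 fold change of −0.14 (SE 0.18, limma adjusted p = 0.804). Col6a5 was at 3.93 to 115 (median 28.1) CPM, with a log2 fold change of 0.18 (SE 0.78, limma adjusted p = 0.951). Replicates 1, 2, 3 and 6, those with a 7SL share above 25%, were at 28.1 to 115 CPM, and the other 3 at 3.93 to 10.5 CPM. Col24a1 was at 0.984 to 5.03 (median 2.17) CPM, with a log2 fold change of −0.59 (SE 0.33, limma adjusted p = 0.464).

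Compared with saline, HDM + Dex samples still differed in 7 collagen genes, 6 higher and 1 lower, where 1.89% of all genes passed, 0.445% higher and 1.44% lower. In 8 collagen genes the groups did not overlap, 6 higher and 2 lower, against 2.4% of all genes, 0.524% higher and 1.87% lower. After rescaling 5 passed, 4 higher and 1 lower, against 0.941% of all genes, 0.49% higher and 0.451% lower. These comparisons share the saline and the HDM + Dex samples with those above, so that their values are given side by side. Log2 fold changes against saline were 0.73 (SE 0.18, limma adjusted p = 0.0426) for Col1a1, 0.90 (SE 0.22, limma adjusted p = 0.0416) for Col3a1 and 0.81 (SE 0.20, limma adjusted p = 0.0385) for Col5a2, each smaller than after HDM alone. Col1a2, at 0.53 (adjusted p = 0.1), did not pass. Collagen VI genes had 0.86 (SE 0.19, limma adjusted p = 0.0302) for Col6a1, 0.88 (SE 0.19, limma adjusted p = 0.0269) for Col6a2 and 3.82 (SE 0.86, limma adjusted p = 0.0292) for Col6a5. Col24a1 had 1.30 (adjusted p = 0.0619) and did not pass. Col12a1 was at 14.1 to 25.2 (median 18.4) CPM, below every saline sample, with −1.33 (SE 0.22, limma adjusted p = 0.00339). With the 7SL share as a covariate, or with only samples below 25%, 0 collagen genes passed, and without HDM + Dex replicate 6 only Col12a1 did.

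Type I and type III collagen mRNA was lower in aged than in adult lungs. Between the naïve groups 3 of the 34 genes passed, all 3 lower in aged mice, where 0.654% of all genes passed, 0.592% higher and 0.062% lower. In 4 collagen genes, Col1a1, Col1a2, Col6a6 and Col17a1, the groups did not overlap, all 4 lower, against 3.09% of all genes, 2.91% higher and 0.175% lower. Col1a1 was at 207, 265, 329, 335 and 299 CPM in adults, above every aged sample, and the log2 fold change was −1.42 (SE 0.19, limma adjusted p = 0.00147). Col1a2 was at 199, 296, 343, 305 and 264 CPM in adults, also without overlap, with a log2 fold change of −1.01 (SE 0.20, limma adjusted p = 0.0224). Col3a1 was at 226, 451, 577, 466 and 585 CPM in adults, where replicate 1 fell within the aged range, with a log2 fold change of −1.28 (SE 0.27, limma adjusted p = 0.033).

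Adult replicate 1 was the sample with the highest 7SL share and was the lowest adult sample in each of these genes. Without it 9 genes passed, all lower, and after median-of-ratios rescaling 10 passed, all lower, where 1.03% of all genes passed, 0.58% higher and 0.451% lower, with Col5a1, Col5a2, Col6a1, Col6a2, Col6a3, Col4a5 and Col16a1 added. Col5a2 was at 41.2, 76.8, 96.2, 82.8 and 102 CPM in adults, with a log2 fold change of −0.83 (SE 0.23, limma adjusted p = 0.133) in the deposited CPM. Col12a1 was at 33.8, 86.3, 107, 93.8 and 79.3 CPM in adults, with −0.59 (adjusted p = 0.457). All adults were female, so that age and sex cannot be fully told apart in this comparison. The 2 female aged samples were at 118 and 89.8 CPM for Col1a1, and the 3 males at 92.3 to 119.8 CPM. With sex as a covariate only Col1a1 passed, and the log2 fold changes were −1.08 (adjusted p = 0.117) for Col1a2 and −1.19 (adjusted p = 0.228) for Col3a1. Female and male aged samples averaged 132 and 142 CPM for Col1a2 and 195 and 178 CPM for Col3a1. The part of sex in these differences was not tested.

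Ratios of chains within a sample do not depend on how a library was scaled. Differences in the mean log2 ratio were tested by two-sided exact permutation tests, with p-values adjusted over 28 tests, 7 ratios in 4 comparisons. The 4 tests of 1 ratio, Col6a1 to Col1a1, are counted in the adjustment but not reported, since that ratio was chosen after the values were seen. The Col5a1 to Col1a1 ratio, minor against major fibril chain, was 0.454 ± 0.0744 in saline (SD, n = 5), 0.211 ± 0.0507 in HDM (SD, n = 7) and 0.284 ± 0.0438 in HDM + Dex samples (SD, n = 7). HDM and saline did not overlap, and the exact test gave −1.12 on the log2 scale (SE 0.16, p = 0.00253, adjusted p = 0.0236). The HDM + Dex mean lay between them, with 0.44 on the log2 scale (SE 0.15, p = 0.0146, adjusted p = 0.0386) against HDM in the exact test. In adults the ratio was 0.273 ± 0.0283 (SD, n = 5), below every aged sample, with 0.73 on the log2 scale (SE 0.12, p = 0.00794, adjusted p = 0.0278) for aged vs. adult in the exact test.

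**Figure D4:**
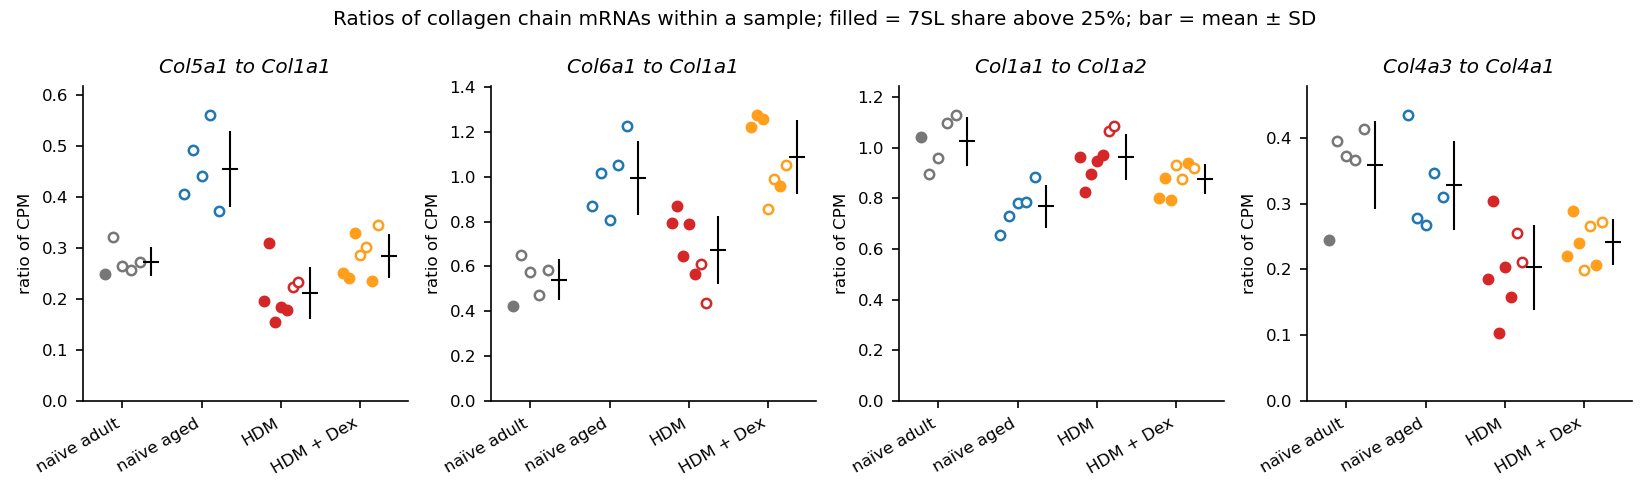
Ratios of CPM of collagen chain pairs within each sample, by group, with 1 point per sample, filled where the 7SL share was above 25%, and the mean ± SD beside the points. The Col5a1 to Col1a1 ratio was lower in HDM than in saline samples and lower in adult than in aged naïve samples, and the Col6a1 to Col1a1 panel is a description of a ratio chosen after the values were seen.

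The Col6a1 to Col1a1 ratio sets a collagen VI chain against a fibrillar chain and is given as a description. It was 0.994 ± 0.165 in saline (SD, n = 5), 0.673 ± 0.152 in HDM (SD, n = 7) and 1.09 ± 0.165 in HDM + Dex samples (SD, n = 7). The Col1a1 to Col1a2 ratio, a pair that forms 1 trimer with 2 α1 chains for each α2 chain, was 0.768 ± 0.0835 in saline and 0.965 ± 0.0913 in HDM samples, a difference of 0.33 on the log2 scale (SE 0.09, p = 0.00505, adjusted p = 0.0278) by exact permutation. In adults it was 1.03 ± 0.0977, and aged differed from adult by −0.42 on the log2 scale (SE 0.09, p = 0.00794, adjusted p = 0.0278) by exact permutation, without overlap.

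Within collagen IV, the ratio of the alveolar chain Col4a3 to Col4a1 was 0.328 ± 0.0677 in saline and 0.203 ± 0.0648 in HDM samples, a difference of −0.74 on the log2 scale (SE 0.23, p = 0.0101, adjusted p = 0.0314) by exact permutation. By contrast, Col4a1 to Col4a2, Col6a1 to Col6a2 and Col3a1 to Col1a1 did not pass in any comparison. For HDM vs. saline the Col4a1 to Col4a2 ratio was 1.32 ± 0.113 in saline and 1.32 ± 0.136 in HDM samples, and Col6a1 to Col6a2 was 1.31 ± 0.151 and 1.38 ± 0.118.

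Chains of 1 trimer also varied together among samples of a group. Over the 24 samples, after removing group means from log2(CPM + 1), Pearson's r was 0.912 for Col1a1 with Col1a2 (Spearman's rho 0.93), 0.928 for Col4a1 with Col4a2 (rho 0.834), 0.936 for Col4a3 with Col4a4 (rho 0.907) and 0.920 for Col6a1 with Col6a2 (rho 0.903). Col4a1 with Col4a2, and Col4a3 with Col4a4, lie head to head and start next to each other. Col1a1 with Col3a1 had r = 0.861 (rho 0.799). Each had a permutation p of 1e-05, the smallest that 100000 permutations can give, and an adjusted p of 1.2e-05 over 6 pairs. After median-of-ratios rescaling, r of the pairs named above was 0.847 to 0.941. Pairs of genes unrelated to collagen were not run, so that a background level of r is not given. Without the 2 samples farthest from the median of the gene named first, r was 0.747 to 0.876 for 4 of these pairs and 0.902 for Col6a1 with Col6a2. Within the 14 samples with a 7SL share below 25%, r was 0.719 to 0.909, except for Col1a1 with Col3a1 at 0.475 (permutation p = 0.0850, adjusted p = 0.102), where rho was 0.666 (permutation p = 0.0117, adjusted p = 0.014), and within the 10 samples above it r was 0.830 to 0.988. Col1a1 with Serpinh1, the gene of the collagen chaperone Hsp47, had r = 0.339 (rho 0.271, permutation p = 0.101, adjusted p = 0.101).

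The genes that make and handle collagen were read from the same fit, in which 25.3% of all genes passed after HDM. Of 14 genes of prolyl and lysyl hydroxylases and collagen glycosyltransferases, 5 were lower and 0 higher, where 21.2% of all genes were lower and 4.04% higher. P4ha1, a catalytic subunit of prolyl 4-hydroxylase, was at 65.6 to 84.3 (median 68.9) CPM in saline and 27.3 to 66.8 (median 42.6) CPM in HDM samples, with a log2 fold change of −0.72 (SE 0.17, limma adjusted p = 0.00496). P4ha2 had −0.71 (adjusted p = 0.00756), the lysyl hydroxylase gene Plod2 −0.86 (adjusted p = 0.00335) and Colgalt2 −0.83 (adjusted p = 0.0107). After rescaling, 4 of the 14 were lower and 5 higher, against 11.6% and 10.9% of all genes. Of 9 genes of folding and export, 1, Mia3, was lower, and Serpinh1 had 0.08 (adjusted p = 0.717), at 146 to 193 (median 157) CPM in saline and 116 to 241 (median 172) CPM in HDM samples. Of 7 genes of procollagen processing, 1 was lower, the enhancer protein gene Pcolce2, with −1.49 (adjusted p = 0.00059).

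With only samples below a 7SL share of 25% the log2 fold change was −0.25 for P4ha1, −0.30 for P4ha2, −0.58 for Plod2 and −0.71 for Colgalt2, and none of these passed there.

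Of 6 cross-linking genes, 1 was higher after HDM, the lysyl oxidase family gene Loxl3, with 0.68 (adjusted p = 0.0076). After rescaling 3 were higher, against 10.9% of all genes. Lox itself was at 32.4 to 80.9 (median 36.8) CPM in saline, 40.4 to 66.4 (median 46.9) CPM in HDM and 23.7 to 39.7 (median 30.1) CPM in HDM + Dex samples. It had 0.17 (adjusted p = 0.544) for HDM vs. saline and −0.77 (SE 0.18, limma adjusted p = 0.0372) for HDM + Dex vs. HDM, where the groups did not overlap. Of 5 proteoglycan and fibril-binding genes, Sparc, whose protein binds procollagen, was higher after HDM at 0.66 (adjusted p = 0.00945) and lower with Dex at −0.75 (adjusted p = 0.0311), and Dcn was lower after HDM. The calls with Dex were lost in many settings, with Lox passing in 17 and Sparc in 18 of 31 alternatives. With only samples below a 7SL share of 25% their limma adjusted p-values for HDM + Dex vs. HDM were 0.433 and 0.498. Of 10 collagen receptor genes, 3 were lower after HDM and 0 higher, against 21.2% and 4.04% of all genes. After rescaling 1 was lower and 2 higher, against 11.6% and 10.9%. The 3 lower genes were the integrin chains Itga1 at −0.77 (adjusted p = 0.00126) and Itga2 at −0.54 (adjusted p = 0.0113) and the receptor kinase Ddr2 at −0.51 (adjusted p = 0.00784). With only samples below a 7SL share of 25%, Itga2 (−0.23), Ddr2 (−0.36), Itga1 (−0.60), Sparc (0.36) and Loxl3 (0.59) did not pass, and Pcolce2 and Tgfb1 did. Among 4 inducers of collagen tested, Tgfb1 was higher, at 0.65 (adjusted p = 0.00841). With Dex, 0 of the 14 hydroxylase and glycosyltransferase genes, 0 of the 9 folding genes, 0 of the 7 processing genes and 0 of the 10 receptor genes passed, with 0.23 (adjusted p = 0.582) for P4ha1 and −0.10 (adjusted p = 0.832) for Serpinh1. Only 0.964% of all genes passed in that comparison, so that counts of 0 in lists of this size do not set these genes apart. In aged vs. adult lungs none of these lists had a gene that passed in the deposited CPM, where 0.654% of all genes passed. After rescaling Fkbp10, Adamts2, Loxl1, Loxl2, Sparc and Mrc2 were lower, where 0.451% of all genes were lower. The deposited CPM gave 0.37 (adjusted p = 0.646) for P4ha1, −0.20 (adjusted p = 0.766) for Serpinh1 and 0.64 (adjusted p = 0.479) for Lox.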

How the data were processed

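RNA-Seq values of 24 lung samples in 4 groups were analysed. By the study's methods, reads were paired, from a stranded mRNA kit, and the authors used a Picard-STAR-limma pipeline. They deposited 1 table of CPM per gene with a constant of 0.0001 added, and how CPM were scaled is not given in the sources used here. The submitters' processing notes name FastQC, STAR, DESeq2 and mm9, but all 40 collagen genes have the start, and the end plus 1 base, of GRCm38 (GENCODE vM21), whose coordinates are printed. Depth was estimated from the spacing of low CPM values, of which 81.1% to 85.9% were whole multiples within 0.05, so counts were not recovered and count tests were not run. Intervals from depth cover counting error only.

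Differences were computed with limma 3.58.1 (R 4.3.3) on log2(CPM + 1) with a mean-variance trend, over the 17744 genes averaging 1 CPM or more, with Benjamini-Hochberg adjustment at 0.05. The 19 aged samples formed 1 fit and the 10 naïve samples another, as the labels group them. This step was first checked on simulated data. Python 3.11.15, numpy 2.4.6, pandas 2.3.3, scipy 1.17.1 and matplotlib 3.10.9 were used. The members and gene lists were chosen with earlier results of these data known. Collagen genes named in full are those that passed in HDM vs. saline, HDM + Dex vs. HDM or aged vs. adult, and the member of each class with the highest mean. Of the collagen-making genes, Serpinh1, P4ha1 and Lox are named, with up to 10 that passed. Sparc, Dcn, Mia3, Fkbp10, Adamts2, Loxl1, Loxl2, Mrc2, Col4a2, Col15a1 and Col18a1 were added after their values were seen. Alternatives were pseudocounts of 0.1 and 5, filters of none and 5 CPM, rescaling by the median of ratios, other groups in the fit, a replicate block, sex or the 7SL share as covariates, subsets by 7SL share, and leaving out each sample.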

Additional observations from a re-analysis of the deposited data

Results flagged for a closer look

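Single samples were compared with the rest of their group for the 20 collagen genes given in full, by the gap to the nearest sample against the range of the group (Dixon's criterion at 95%). Of 80 groups, 7 held such a sample, where chance gives about 1 in 20. HDM + Dex replicate 6 was high for Col3a1 (566 CPM, others 251 to 372 CPM) and for Col5a2 (124 CPM, others 57.5 to 82.5 CPM). Saline replicate 5 was high for Col4a1 (916 CPM, others 458 to 506 CPM), and HDM + Dex replicate 7 for Col4a6 (18.3 CPM, others 9.07 to 12.9 CPM). Adult replicate 1, the sample with the highest 7SL share, was low for Col5a1 (51.6 CPM, others 81.5 to 86.8 CPM). HDM replicate 7 was high for Col5a3 (8.61 CPM, others 5.05 to 6.51 CPM) and HDM + Dex replicate 3 for Col8a1 (14.7 CPM, others 9.34 to 11.2 CPM).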

How the results depend on the processing

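The number of collagen genes that passed depended on the samples and covariates. For HDM vs. saline it was 17, 5 with the 7SL share as a covariate, 5 with only samples below 25%, and 12 to 18 when each sample was left out. For HDM + Dex vs. HDM it was 4, 2 without a filter, 0 with only these 2 groups, 0 under the replicate block, 0 with only samples below 25%, and 0 to 6 with a sample left out. It was 0 without HDM replicate 1, 3, 4 or 5 or HDM + Dex replicate 1, 3, 4 or 5, and 1 without HDM + Dex replicate 7. For HDM + Dex vs. saline it was 7, 4 without a filter, 4 with all 24 samples, 12 with a sex covariate, 0 with the 7SL share as a covariate, 0 with only samples below 25%, and 1 to 9 with a sample left out. It was 1 without saline replicate 1, 3 or 4 or HDM + Dex replicate 1, 2 or 6, and 3 without saline replicate 5. For aged vs. adult it was 3, 10 after rescaling, 1 with a sex covariate, 11 with the 7SL share as a covariate, 9 with only samples below 25%, 8 with rescaling and sex, and 1 to 9 with a sample left out, 9 without adult replicate 1 and 1 without adult replicate 2, 3 or 4 or aged replicate 1, 4 or 5. The cause of these shifts was not tested. Rescaling moved the median of all genes from −0.23 to −0.01 for HDM vs. saline, from −0.19 to −0.01 for HDM + Dex vs. saline and from 0.19 to 0.00 for aged vs. adult, by its construction.

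Same-numbered samples did not vary together (r over 0.1 in 4 of 32 pairs), so the replicate block rests on a shared number alone. Under it 18 genes passed for HDM vs. saline, 9 for HDM + Dex vs. saline and 3 for aged vs. adult. Some values near 0 changed sign: Col28a1 for HDM vs. saline was −0.053 with only samples below 25% and −0.055 to 0.086 with a sample left out, and Col8a1 was 0.12 after rescaling, 0.056 with rescaling and sex and −0.26 to 0.048 with a sample left out. Serpinh1 was −0.024 under the replicate block and −0.00050 to 0.17 with a sample left out. P4ha1 for HDM + Dex vs. HDM was −0.084 with only samples below 25%, and for aged vs. adult −0.26 with the 7SL share as a covariate, −0.047 with only samples below 25% and −0.047 to 0.56 with a sample left out. Col6a5 for HDM + Dex vs. HDM was −0.35 to 0.56 with a sample left out. For HDM vs. saline, Col27a1 was 0.074 after rescaling and 0.060 with rescaling and sex, Col4a4 0.019 and 0.0061 in these settings and 0.033 with only samples below 25%, and Col4a3 0.056 with the 7SL share as a covariate and 0.11 with only samples below 25%. Col6a6 was −0.061 at a pseudocount of 0.1, −0.0031 with the 7SL share as a covariate, −0.18 with only samples below 25% and −0.054 to 0.13 with a sample left out.

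For chain ratios, leaving out a sample gave Col1a1 to Col1a2 −0.17 to −0.10 (HDM + Dex vs. HDM) and 0.14 to 0.25 (HDM + Dex vs. saline), Col3a1 to Col1a1 0.073 to 0.28 (HDM vs. saline), Col5a1 to Col1a1 0.37 to 0.54 (HDM + Dex vs. HDM), Col4a3 to Col4a1 −0.84 to −0.59 (HDM vs. saline) and −0.50 to −0.32 (HDM + Dex vs. saline), Col4a1 to Col4a2 −0.050 to 0.038 (HDM vs. saline) and 0.076 to 0.16 (aged vs. adult), and Col6a1 to Col6a2 −0.10 to 0.019 (HDM + Dex vs. saline) and −0.10 to 0.027 (aged vs. adult). Col1a1 with Col3a1 had r = 0.475 with only samples below 25%. The subsets by 7SL share for pairs, and rescaling together with sex, were chosen after seeing the data. Depth limits values near 0.3 CPM, such as Col24a1 in saline samples.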
